A study of Mus musculus with 8 samples.

Results

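Liver RNA of 8 adult male mice was examined for 10 imprinted genes, 5 in the Dlk1-Dio3 region of chromosome 12 (*Meg3*, *Rian*, *Mirg*, *Dlk1* and *Rtl1*) and 5 at other loci (*H19*, *Igf2*, *Igf2r*, *Grb10* and *Peg3*). They are 10 of the 27179 genes in the authors' deposited table, and all 10 were found there by symbol. The members were chosen by name, with the authors' own genotype comparison already known. The values of that comparison prompted the choice and are not used here. The groups were 4 wild-type mice (V227) and 4 mice homozygous for the *Ppara* substitution V227A. All were of strain C57BL/6NHsd and had been fasted for 6 h. PPARɑ is a nuclear receptor that turns on genes of fatty acid use in the fasted liver. The V227A line was made by germline base editing, descends from 1 heterozygous founder backcrossed to C57BL/6NHsd, and was bred through heterozygotes. The diet of these particular mice is not given in the sources used here.

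An imprinted gene is expressed mainly from the chromosome of 1 parent, because a methylation mark laid down in the egg or the sperm makes the 2 copies behave differently. Depending on the gene, the copy that is silent lies on the methylated or on the unmethylated chromosome. Such genes lie in clusters. In the Dlk1-Dio3 cluster the maternal chromosome gives long non-coding RNAs (*Meg3*, *Rian*, *Mirg*) with many miRNAs and small nucleolar RNAs, and the paternal chromosome gives protein-coding genes (*Dlk1*, *Rtl1*, *Dio3*). Several imprinted genes that promote or restrain fetal growth, among them *Igf2*, *H19* and *Dlk1*, are abundant in the fetal liver and are largely switched off after birth.

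The only measure used is the average log2 CPM (reads scaled to library size, on a log2 scale), which the authors computed over the libraries of both genotypes. It has no value per mouse or per genotype. A spread between mice cannot be given, no difference between wild-type and V227A was tested, and the parent of origin of a transcript cannot be read from it. Of the 27179 genes, 18937 lay above the lowest value of the table, -3.78, and were taken as having reads. From that lowest value the mean effective library size was 27473997 reads. The same relation gives an estimate of each gene's reads in all 8 libraries, and intervals below are 95% exact Poisson intervals of these estimates, which cover counting error only. The 6 hepatocyte markers, from *Tat* to *Alb*, had averages of 10.51 to 16.09 log2 CPM. The 4 endothelial markers lay between 3.29 and 5.47, the 4 stellate markers between 2.96 and 4.52, and the 4 Kupffer cell or macrophage markers between 2.25 and 6.36. Liver cells other than hepatocytes were therefore in the tissue. In bulk RNA the cell type that holds a transcript is unknown, and fewer cells of a type and less RNA per cell cannot be told apart. Cholangiocyte markers (0.39 to 2.30) and the 3 muscle markers (-1.46 to -0.40) were low. The 3 fat markers ran from -3.61 to -1.63. Of the 3 pancreatic markers, *Cpa1* had no reads, *Ctrb1* stood at 0.36 and *Cela1* at 4.90.

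*Meg3* (Entrez Gene 17263) was the most abundant transcript of the Dlk1-Dio3 members. This long non-coding RNA of the maternal chromosome is annotated on the plus strand of chromosome 12, from 109540996 to 109571729 of GRCm38. Its average was 3.50 log2 CPM, which corresponds to 2468 reads in all (2372 to 2567), or 308.5 per library. Per length of exon this was 0.621 RPKM, the CPM of those reads divided by the annotated exon length in kb (0.597 to 0.646).

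*Rian* (Entrez Gene 75745) is the next non-coding RNA on the same strand, from 109603945 to 109661716, and hosts small nucleolar RNAs. It starts 32.2 kb beyond the end of *Meg3*. Its average was 0.42 log2 CPM, from 279 reads in all (247 to 314) or 34.9 per library. Per length it stood at 0.0696 RPKM (0.0617 to 0.0783), so that *Meg3* was 8.92-fold higher per length than *Rian*. The fold depends on which isoforms are taken as present, since the annotation lists 11 transcripts of *Meg3* and 20 of *Rian*: with the longest transcript as the length in place of all exons, it was 4.92.

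*Mirg* (Entrez Gene 100040724), the non-coding RNA that hosts the last miRNAs of the cluster, lies 73.3 kb beyond *Rian*, from 109734981 to 109749458. It averaged -2.29 log2 CPM, an estimated 29 reads in all (19.4 to 41.6). Per length this was 0.0180 RPKM. Per length the levels were thus in the order of the genes on the chromosome, *Meg3* above *Rian* above *Mirg*. Their intervals did not overlap with either choice of length. The annotation used for counting is not given in the sources used here, so reads and exon lengths may cover different bases. Neither the intervals nor the choice of length covers this.

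Of the paternally expressed genes of the region, *Dlk1* and *Rtl1* were close to the limit of what this depth can show. *Dlk1* (Entrez Gene 13386, from 109452485 to 109463336), which encodes a membrane protein related to Notch ligands, had an average of -3.61 log2 CPM and an estimated 2 reads in all 8 libraries (0.242 to 7.22). *Rtl1* (Entrez Gene 353326), a gene derived from a retrotransposon that is needed in the placenta, averaged -3.53 log2 CPM with an estimated 3 reads (0.619 to 8.77). No fold is given for totals this small. Of the other genes listed for the region, *Dio3*, which encodes an enzyme that inactivates thyroid hormone, averaged -2.46 log2 CPM with 24 reads in all (15.4 to 35.7). Per length *Dio3* stood at 0.0538 RPKM (0.0345 to 0.0800). With all exons as the length, *Dio3* was above *Mirg* and its interval overlapped that of *Rian*. With the longest transcript, its interval overlapped that of *Mirg* (0.0231 to 0.0496), so the order of *Dio3* and *Mirg* was not resolved. *Begain* averaged -3.61 log2 CPM (2 reads). Of the 7 listed genes of the region, *Meg3* and *Rian* were the only ones to reach 0 log2 CPM.

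*Rtl1* is on the minus strand and is annotated in RefSeq from 109564900 to 109604418. This span overlaps the end of *Meg3* by 6830 bases and the start of *Rian* by 474 bases. In GENCODE, the source of the exon lengths, *Rtl1* runs from 109589193 to 109600330 and overlaps neither gene. Which annotation served for the counting is not given in the sources used here. The libraries were stranded, but the strand setting of the counting is not given in the sources used here. Without strand, reads of *Rtl1* and of the RNAs opposite to it could not be told apart, and the same holds in the other direction.

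**Figure D1:**
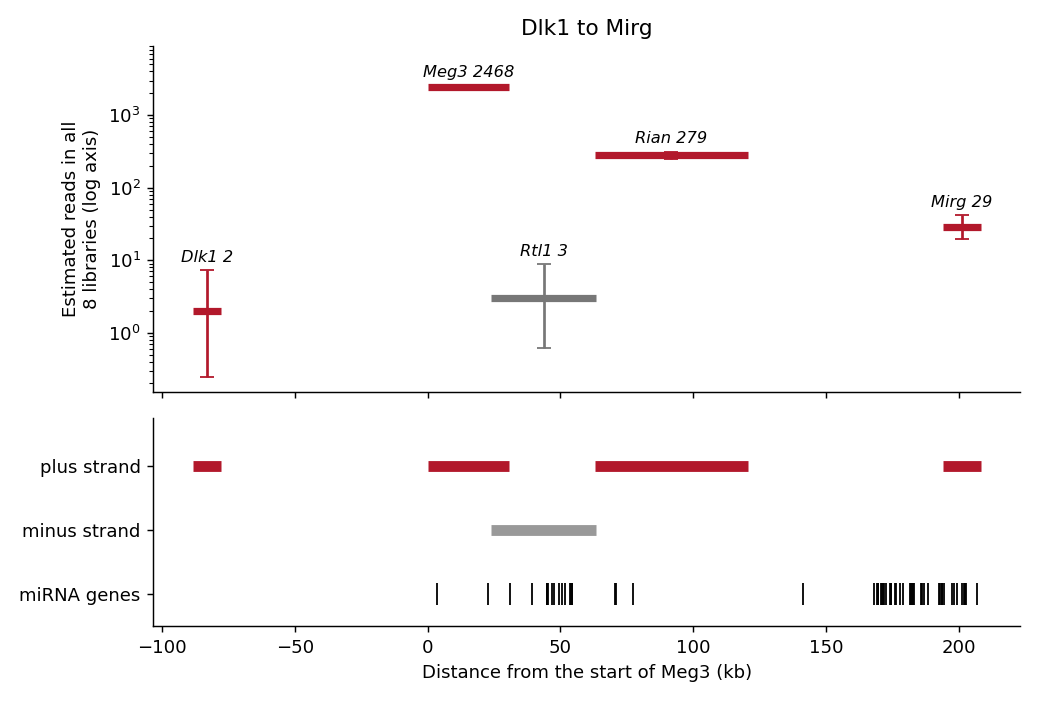
Upper panel, estimated reads in all 8 libraries pooled (log axis) for the 5 members of the Dlk1-Dio3 region, each drawn over its annotated span as distance from the start of Meg3 in kb, with 95% Poisson intervals. Lower panel, the strand of each gene and the 60 annotated miRNA genes of the region. Meg3 has 2468 reads and Rian 279, while Dlk1 and Rtl1 have 2 and 3.

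The windows at annotated starts of *Meg3*, *Rian* and *Dlk1* are shown because these genes span the range of levels in the region. Whether each window acts as a promoter in the liver was not tested. Each sequence is from RefSeq (GRCm38.p6), plus strand, 300 bases long, with 250 bases before the first start listed there and 50 after it. Capitals mark CpG dinucleotides, the kind of site at which imprinting methylation is laid down. Methylation was not measured, so the capitals do not show which sites carry it. For *Meg3* and *Rian* the windows are chr12:109540746-109541045 and chr12:109603695-109603994, and for *Dlk1* chr12:109452573-109452872. The start used for *Dlk1*, 109452823, lies inside the gene's RefSeq span, which begins at 109452485, so that this window covers part of that span.
Meg3: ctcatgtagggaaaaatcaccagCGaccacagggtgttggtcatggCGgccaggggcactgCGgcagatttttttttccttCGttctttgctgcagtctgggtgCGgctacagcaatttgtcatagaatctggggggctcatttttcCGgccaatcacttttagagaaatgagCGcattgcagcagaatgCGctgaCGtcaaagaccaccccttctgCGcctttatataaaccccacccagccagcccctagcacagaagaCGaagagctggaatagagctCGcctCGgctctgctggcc
Rian: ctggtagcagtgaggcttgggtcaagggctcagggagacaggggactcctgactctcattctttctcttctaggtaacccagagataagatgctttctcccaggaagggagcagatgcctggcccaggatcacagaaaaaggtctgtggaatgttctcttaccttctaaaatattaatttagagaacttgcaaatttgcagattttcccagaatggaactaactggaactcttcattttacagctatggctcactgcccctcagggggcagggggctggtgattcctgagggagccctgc
Dlk1: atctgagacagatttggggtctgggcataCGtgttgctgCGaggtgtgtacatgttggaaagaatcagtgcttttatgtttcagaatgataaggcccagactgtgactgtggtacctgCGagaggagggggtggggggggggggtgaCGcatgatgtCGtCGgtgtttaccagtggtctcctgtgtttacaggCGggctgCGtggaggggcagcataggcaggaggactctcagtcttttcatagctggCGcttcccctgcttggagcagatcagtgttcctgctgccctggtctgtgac

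The *Meg3* window holds 13 CpG and the *Dlk1* window 9. The *Rian* window holds 0. Among 32851 RefSeq promoter windows of the same length the median was 7 CpG, 37.9% held at least 13 and 5.43% held none. The letters TATAAA were found in the *Meg3* window and in 0 of the other 12 windows of the members (13.6% of all windows, both strands searched). TGCCGC, the hexamer bound by the imprinting factor ZFP57 when methylated, was found in the first window of *Meg3*, the first of *Grb10* and a later one of *Igf2* (11.6% of all windows). AGGTCA, the hexamer that nuclear receptors such as PPARɑ recognize, was found in the second window of *Meg3*, the first of *Igf2* and the window of *Igf2r* (16.3% of all). The direct repeat of AGGTCA with 1 base between, which contains that hexamer and is the usual PPARɑ element, was found in 0 of the 13 windows of members and in 0.0396% of all windows. With so low a share, 0 of 13 does not set the members apart. Only the exact letters within these windows were searched, so other forms and distant sites were not covered. Windows were given for 8 of the 10 members.

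The region also holds 60 annotated miRNA genes between *Dlk1* and the end of *Mirg*. The set of hairpin sequences used here held 57 hairpins in this stretch, 54 on the plus strand and 3 on the minus strand. Of these hairpins, 1 lies inside *Meg3*, 3 inside *Rian* and 10 inside *Mirg*. The wider gene annotation also places *Mir1906-1* inside *Meg3*, 3.5 kb from its start. The RefSeq span of *Rtl1* holds 15 hairpins, of which 13 are on the opposite strand. A mature miRNA from each of these hosts shows what the maternal transcripts can give rise to. The sequences are from RefSeq, with the seed (bases 2 to 8) in capitals, in the order *Meg3*, opposite *Rtl1*, *Rian*, *Mirg*.
miR-770-3p: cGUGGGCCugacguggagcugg
miR-127-3p: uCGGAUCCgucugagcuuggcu
miR-370-3p: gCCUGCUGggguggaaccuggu
miR-410-3p: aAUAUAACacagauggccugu

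The 111 mature miRNAs of the region carry 102 different seeds, and 9 seeds are shared, each by 2 of them. The next 3 pairs are shown as examples. Counted from the start of *Meg3*, the hairpin of miR-370 lies at 77.3 kb inside *Rian* and shares a seed with that of miR-1193 at 174.7 kb. The hairpin of miR-379 lies at 168.1 kb, close to miR-1193, and those of miR-494 and miR-410 lie at 174.3 and 202.7 kb.
miR-370-5p: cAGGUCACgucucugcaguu
miR-1193-3p: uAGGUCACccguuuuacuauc
miR-379-5p: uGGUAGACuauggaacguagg
miR-1193-5p: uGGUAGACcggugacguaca
miR-494-5p: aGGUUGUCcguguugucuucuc
miR-410-5p: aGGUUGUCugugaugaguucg

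Mature miRNAs were not measured, since these were poly-A libraries of longer RNA. The table does list miRNA genes. It holds 57 of the 60 annotated miRNA genes of the region, a count separate from the 57 hairpins above. Of these genes, 3 had any reads (5.26%), with an estimated 1 read each. They were *Mir1188* inside *Rian*, *Mir541* inside *Mirg* and *Mir668* near the start of *Mirg*. Over all 643 miRNA genes of the table, 144 had reads (22.4%). Of the 7 small nucleolar RNA genes of the region in the table, 2 had reads (28.6%), *AF357359* with 3 and *DQ267102* with 1, both inside *Rian*. Over all 123 such genes of the table, 96 had reads (78%). How the counting treated a read that falls on both a hairpin gene and its host is not given in the sources used here.

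Outside the region, *Igf2r* (Entrez Gene 16004) stood highest of all 10 members. It encodes the receptor that carries IGF2 and mannose-6-phosphate enzymes to the lysosome, and in mice it is expressed from the maternal copy. It lies on the minus strand of chromosome 17, from 12682406 to 12769706. Its average was 4.98 log2 CPM, from 6903 reads in all (6741 to 7068). Per length it reached 3.37 RPKM (3.30 to 3.45), 5.44-fold above *Meg3*, and it was the only member above 1 on that scale. *Airn*, the antisense RNA of the paternal copy that starts within *Igf2r*, averaged -1.64 log2 CPM with 55 reads. Per length *Igf2r* was 48.7-fold above *Airn* with all exons as the length and 19.5-fold with the longest transcript. Only annotated exons enter these lengths, 3597 and 1375 bases for *Airn*. The spans of both genes overlap on opposite strands, and the strand setting of the counting is unknown, so the fold is not a measured ratio of sense to antisense RNA. In the same domain *Slc22a3*, an organic cation transporter, averaged 1.88 log2 CPM and *Slc22a2* had no reads.

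*Igf2* and *H19* share a locus on chromosome 7 and were both low. *Igf2* (Entrez Gene 16002, from 142650768 to 142666816), the fetal growth factor bound by *Igf2r*, averaged -1.43 log2 CPM with 65 reads in all (50.2 to 82.8). *H19* (Entrez Gene 14955, from 142575530 to 142578146), the maternal non-coding RNA of the locus, averaged -1.16 log2 CPM with 83 reads (66.1 to 102.9). Per length *H19* was 2.93-fold above *Igf2* (0.153 against 0.0520 RPKM), and their intervals did not overlap. *Ins2* and *Th*, their listed neighbours, had no reads. The receptor *Igf2r* was 64.8-fold above its ligand *Igf2* per length.

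*Grb10* (Entrez Gene 14783), an adaptor protein that dampens insulin receptor signalling, lies on chromosome 11 from 11930499 to 12037428. It averaged 0.99 log2 CPM with 422 reads in all (383 to 464), or 0.211 RPKM. *Ddc*, the enzyme dopa decarboxylase beside it, averaged 5.04 log2 CPM. *Peg3* (Entrez Gene 18616), a paternally expressed zinc finger protein, lies on chromosome 7 from 6703892 to 6730462. It averaged 0.83 log2 CPM with 374 reads (337 to 414), or 0.128 RPKM. *Usp29* and *Zim1* of the same domain had no reads.

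**Figure D2:**
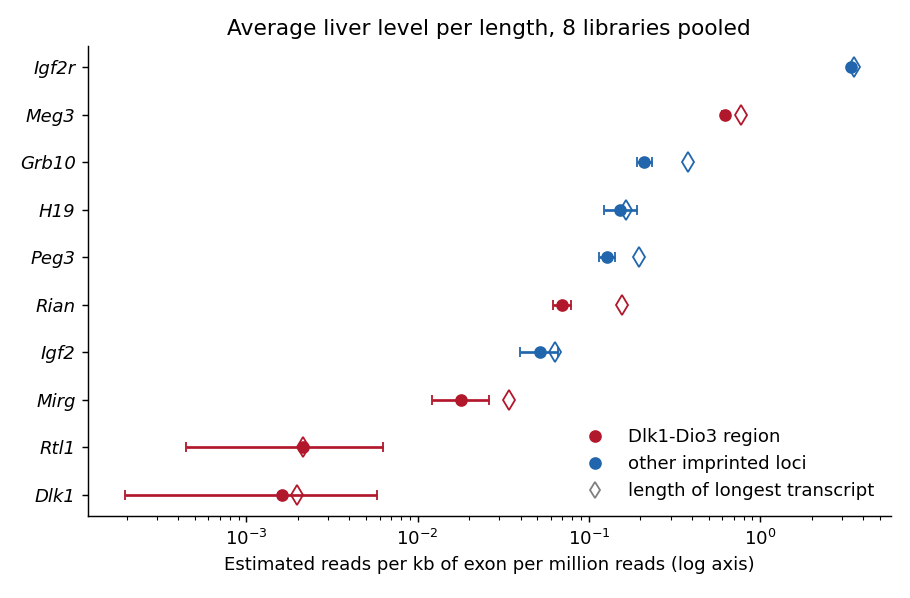
RPKM, estimated CPM per kb of exon (log axis), all 8 libraries pooled. Filled points use the union of annotated exons, with 95% Poisson intervals, and open diamonds use the longest transcript. Igf2r is at 3.37 and Meg3 at 0.621, and Rian at 0.0696 lies below Grb10, H19 and Peg3.

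In order per length, the members were *Igf2r*, *Meg3*, *Grb10*, *H19*, *Peg3*, *Rian*, *Igf2*, *Mirg*, *Rtl1* and *Dlk1*. With all exons as the length, the intervals of *H19* and *Peg3* overlapped, as did those of *Rian* and *Igf2* and those of *Rtl1* and *Dlk1*, so the order within each of these pairs was not resolved by the reads. With the longest transcript, *H19* and *Peg3* changed places, and the other 8 members kept their rank. The interval of *Rian* then overlapped those of *H19* and, narrowly, *Peg3*, and *Rian* stood apart from *Igf2*.

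*Meg3* therefore stood above 4 of the 5 members at other loci and *Rian* above 1 of them, per length. Of the 50 listed imprinted genes outside the region that the table holds, these 5 included, 34 were lower than *Meg3* and 16 were higher. Of these 50, 10 had no reads and count as lower in every comparison here. For *Rian*, 22 were lower and 28 were higher. By CPM, which is not corrected for length, 27 were lower than *Rian* and 23 higher, and 2 of the 5 members at other loci were lower. Among the 40 of these genes with reads, the 23 higher ones were still the larger part. The larger count of lower genes by CPM therefore rests on genes without reads. With the longest transcript, 33 were lower than *Meg3* and 23 lower than *Rian*. Per length the median of these 50 genes, those without reads included, was 0.140 RPKM, which lies between *Rian* and *Meg3*. The order rests on levels pooled over both genotypes and on annotated lengths that may not match the exons counted. No test of it was possible.

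The highest of the listed genes per length were *Cd81*, a tetraspanin of the cell surface, *Slc22a18*, *Gnas*, which encodes a G protein subunit, *H13* and *Dcn*, the matrix protein decorin. With all exons as the length, they ran in this order from 57.8 down to 17.1 RPKM. With the longest transcript the same genes were highest, but *Gnas* came first at 108.1 RPKM, and *Dcn* was at 21.2. Some of these are imprinted only in the placenta or other tissues, and their listing says nothing on imprinting in the liver. By locus, the 9 genes of the *Kcnq1ot1* domain all had reads and ran from -3.69 to 7.38 log2 CPM. The 8 listed genes of the *Snrpn*-*Ube3a* locus included 3 without reads (*Snrpn*, *Snurf* and *Magel2*). The annotated spans of *Snrpn* and *Snurf* overlap on the same strand. How the counting treated reads shared by such genes is not given, so the lack of reads does not show that these transcripts were absent. Reads were found for 47 of the 57 listed genes in the table (82.5%), against 69.7% of all 27179 genes. An average of at least 0 log2 CPM was reached by 25 of the 57 (43.9%), against 43.1% of all genes. All 10 members had reads, and 5 of them reached 0 log2 CPM.

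**Figure D3:**
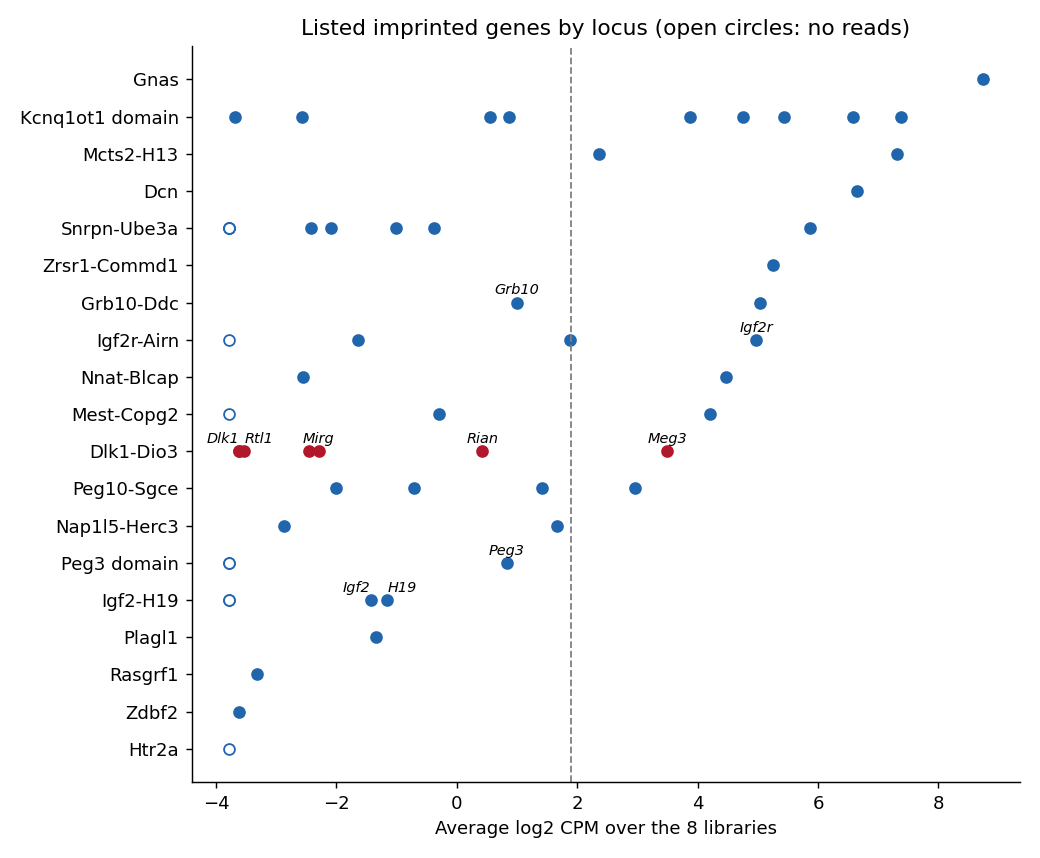
Average log2 CPM over the 8 libraries for the 57 listed imprinted genes in the table, by locus, with the Dlk1-Dio3 region in red and the members named. Open circles are the 10 genes without reads, and the dashed line is the median of all genes with reads, 1.89. Meg3 and Igf2r lie to the right of the line and the other 8 members to its left.

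By reads per gene, which also grow with length, *Igf2r* was at percentile 81.4 of the 18937 genes with reads and *Meg3* at percentile 63.8. *Grb10* was at percentile 44.0, *Peg3* at 42.9 and *Rian* at 40.5. *H19* followed at percentile 31.4, *Igf2* at 29.6 and *Mirg* at 23.8. *Rtl1* and *Dlk1* were at percentiles 8.51 and 6.76, where 348 and 492 other named genes share their estimated totals of 3 and 2 reads. The genes nearest to *Meg3* in average level were *Mad1l1*, *Aktip* and *Tcf12*, all at 3.50 log2 CPM. Nearest to *Rian* were *1110028F11Rik*, *Zfp9* and *Bicc1*, all at 0.42 log2 CPM. Nearest to *Igf2r* were *2510039O18Rik*, *Ptpn3* and *Ankzf1* (4.98 log2 CPM each). For *Grb10* they were *Gm4129*, *Il12rb1* and *Sccpdh*. For *Peg3* they were *Lrrcc1*, *Serpinb6b* and *Arl4c*. These genes share a level in the pooled libraries and nothing more is known of them from this measure.

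**Figure D4:**
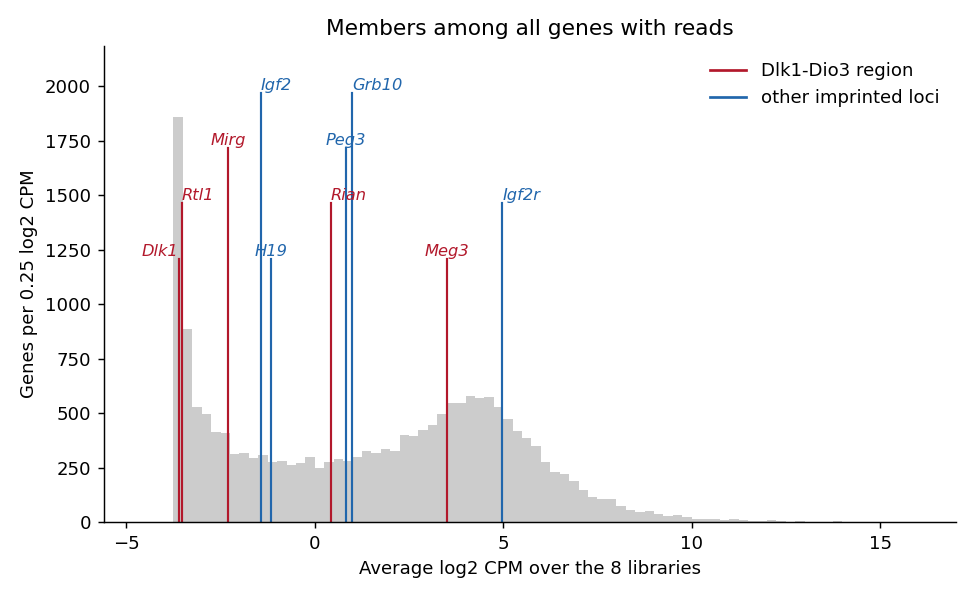
Number of genes per 0.25 log2 CPM against the average log2 CPM over the 8 libraries, for the 18937 genes with reads (grey), with lines at the members. Igf2r lies within the main peak of expressed genes and Meg3 on its left side, and Dlk1 and Rtl1 lie in the spike of genes with few reads at the left end.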

How the data were processed

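The samples were liver RNA from 8 mice, 4 wild-type and 4 V227A. Per the labels and the study's methods, stranded poly-A libraries were sequenced as paired ends, and reads were trimmed with Trimmomatic, aligned to GRCm38 (mm10) with STAR and counted per gene with featureCounts. Tool versions, gene annotation, strand setting and any filter are not given in the sources used here. The deposited table holds the authors' average log2 CPM over the libraries and 4 columns of their own genotype comparison (log2 fold change, F, p-value and FDR). The latter were not used, and values per library fill 0 columns. The planned count-based test could therefore not be run.

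Genes above the lowest value of the table were taken as having reads. With the prior count of 2 that is the default of the authors' tool, that value gives a mean effective library size of 27473997 reads, and each gene's reads follow from its average. As a check of this at the low end, the estimate differed from a whole number by at most 0.1 for 99.9% of the 2378 genes with 1 to 5 reads. Larger totals, such as those of *Meg3*, *Rian* and *Igf2r*, are not covered by this check. The size of each library is unknown. The estimate was also run on simulated data, whose outcome is not given here. Any error of the estimate itself lies outside the Poisson intervals. Exon lengths came from GENCODE vM21, spans and sequences from RefSeq GRCm38.p6. Every level per length assumes that the reads were counted over those exons, which could not be checked. The list of 62 imprinted genes was matched by symbol, and 5 were not found in the table. Members and lists were chosen with earlier results of these data known. The text names every member, the listed genes of the region and of the members' own loci that the table holds, the 5 listed genes elsewhere with the highest level per length, and the 3 genes nearest in level to a member, given here for 5 members. *Snrpn*, *Snurf* and *Magel2* were named after their values were seen. Python 3.11.15, numpy 2.4.6, pandas 2.3.3, scipy 1.17.1 and matplotlib 3.10.9 were used.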

Additional observations from a re-analysis of the deposited data

How the results depend on the processing

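No paired analysis was possible because the table holds no values per library. For the same reason other normalizations, filters on counts, and fits without a replicate were not run. The median percentile of the members in average level was 36.0 among genes with reads, 55.4 among all genes of the table and 1.90 among the 11711 genes with an average of at least 0 log2 CPM, which is by construction, since each setting ranks against other genes. Of the 57 listed imprinted genes, 47 had reads and 25 reached 0 log2 CPM. Taking the longest transcript in place of all exons raised the level per length by up to 2.25-fold (*Rian*). For 4 of the 10 members the new value stayed within the counting interval, and for 6 it did not. Depth limits *Dlk1* and *Rtl1* most, where 3 reads over all 8 libraries are worth 0.0136 CPM.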
